A study of Drosophila melanogaster with 8 samples.

Results

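Antimicrobial peptide genes of the fruit fly Drosophila melanogaster are described here in whole heads in which the chromatin factor gene row was knocked down. The 10 members, Drs, Def, Mtk, Dro, DptB, AttA, AttB, AttC, AttD and CecA1, were found by exact symbol among the 13781 gene symbols of the deposited count table, and no member was missing. Head RNA was counted by 3′ RNA-seq, in which reads come from the ends of transcripts. Controls carried the driver alone (Actin-gal4/+, 3 libraries), and the knockdown flies carried the same driver with a hairpin transgene, Actin-gal4/+; UAS-rowRNAi1/+ (row_RNAi1, 2 libraries) or Actin-gal4/+; UAS-rowRNAi2/+ (row_RNAi2, 3 libraries). All groups share the Actin-gal4 driver, which is active in most tissues. No UAS transgene is named for the controls, and effects of the knockdown and of the inserted transgene with its background cannot be told apart. Rearing was at 25 °C with 12 h of light a day for every group, and 3 days passed between CO2 exposure and collection. Sources used here do not give sex, adult age or the number of heads per library. Nothing says that libraries came from separate collections of flies, so p-values measure the spread between these libraries, which may be technical.

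Flies have no antibodies, and their humoral defence rests on small secreted peptides made mainly by the fat body, a tissue that also lines the head capsule. Fungi and many Gram-positive bacteria act through the receptor Toll and the transcription factors Dif and Dorsal. Gram-negative peptidoglycan acts through PGRP-LC, the adaptor Imd and the transcription factor Relish. Drs, which encodes the antifungal peptide Drosomycin, is the standard readout of Toll. Diptericin (DptB), drosocin (Dro), the attacins (AttA to AttD) and cecropin A1 (CecA1) are readouts of Imd, with some input from Toll for a few of them. Metchnikowin (Mtk) and Defensin (Def) respond to either pathway and were kept apart from both classes. No sequence table was available, so no sequences are shown.

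In the Ensembl annotation, used only for names and neighbours, Dro, AttA and AttB lie next to each other on arm 2R. CecA1 lies between Anp and CecA2 on arm 3R, and DptB lies beside DptA (Dpt in the deposited table) on 2R. AttA and AttB, and CecA1 and CecA2, are close paralogs whose reads could be shared. The ratio of AttA to AttB counts was 0.2 to 0.301 in the 8 libraries, and that of CecA1 to CecA2 was 0.571 to 2.29. Mtk overlaps CG43729 (Stacl) on the same strand. On the opposite strand, Def overlaps magu, DptB overlaps CG43109 and AttC overlaps CG4744. CG43729 stood at 44.4 to 52.4 CPM (counts scaled to a common library total, after TMM normalisation) and magu at 18.7 to 23.3 CPM, and neither passed the test in either line. CG43109 stood at 3.65 to 6.47 CPM and did not pass either, and CG4744 was too low to test, at most 0.103 CPM.

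Library totals were 7015874 to 9437287 counts in controls, 17952015 and 18046699 in row_RNAi1, and 6230666 to 11212213 in row_RNAi2. The targeted gene row was lower in both lines, at 14.3, 14.9 and 12 CPM in the controls, 5.93 and 4.22 in row_RNAi1, and 8.03, 5.97 and 8.27 in row_RNAi2. Its log2 fold change was -1.44 in row_RNAi1 (SE 0.19, edgeR adjusted p = 1.81e-05) and -0.90 in row_RNAi2 (SE 0.17, adjusted p = 0.00175). Here and below, "edgeR adjusted p" is a Benjamini-Hochberg value over all 9442 tested genes from the quasi-likelihood F test, and genes under 0.05 are called changed. Control replicate 2 stood apart for the peptides: it was the lowest control for all 6 Imd-type members with counts in every control, and for Mtk. Changes of single members that rest on it are therefore given with and without it.

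These genes are known as fat body genes of the head, but the libraries hold whole heads, and the peptides can also come from other tissues. Fat body markers were abundant, with a summed level over 15 genes of 89495 to 124858 CPM in controls, 114635 to 142509 in row_RNAi1 and 121154 to 153176 in row_RNAi2, most of it from the yolk protein genes Yp1, Yp2 and Yp3. They moved both ways, with 5 of 13 tested genes higher and 4 lower in each line. Lsp2, which encodes a larval serum storage protein, averaged 1166 ± 446 CPM in controls, 1207 ± 507 in row_RNAi1 and 5455 ± 1087 in row_RNAi2 (mean ± SD; n = 3, 2 and 3), a log2 change of 2.23 in row_RNAi2 (edgeR adjusted p = 2.82e-06), and is named after its values were seen. Fbp1 was too low to test, at 0 in all row_RNAi2 libraries, at most 0.223 CPM in controls, and 0.303 and 1.33 CPM in row_RNAi1. Blood cell (hemocyte) markers had summed levels of 771 to 877 CPM in controls, 621 to 670 in row_RNAi1 and 590 to 617 in row_RNAi2. PPO1 averaged 116 CPM in controls, 51.0 in row_RNAi1 and 70.0 in row_RNAi2, and PPO2 averaged 254, 107 and 144. These 2 genes, named after their values were seen, carry the lower row_RNAi1 sum, which does not stand for all hemocyte markers. Of 13 tested hemocyte genes, 3 were higher and 3 lower in row_RNAi1, and 0 higher and 5 lower in row_RNAi2 (edgeR adjusted p under 0.05). The 3 higher in row_RNAi1 were Hml, NimC1 and Sr-CI, and the 3 lower were PPO1, PPO2 and NimC2. Over all 9442 tested genes, 1055 were higher and 946 lower in row_RNAi1, and 518 higher and 504 lower in row_RNAi2. Summed gut markers lay between 40.8 and 52.4 CPM in all libraries, with alphaTry, Jon65Aiii, Jon99Ciii, Jon25Bii and LManVI at 0 in controls. Most of this sum came from Amy-d and Amy-p. Summed gonad markers lay between 16.0 and 20.5 CPM, most of it from janB, at 15.4 to 19.0 CPM. Among the other gonad markers, Mst98Ca and dj had counts only in row_RNAi2, and Cp36, Cp38 and Acp36DE had none there. The part of these markers in the peptide results was not tested. In such bulk samples, fewer cells of a type and less RNA per cell cannot be told apart.

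Together the 10 genes took a larger share of all counts in every knockdown library than in any control. The share was 0.168%, 0.0743% and 0.165% in control replicates 1 to 3, 0.486% and 0.439% in row_RNAi1, and 0.278%, 0.199% and 0.242% in row_RNAi2. In row_RNAi1 all 10 members rose, against 11.2% of the 9442 tested genes that were called higher there. In row_RNAi2 7 of 10 rose, against 5.49% of tested genes, and 0 fell, against 5.34% called lower. DESeq2 called 3 in row_RNAi2, namely Drs, Def and AttD. The 7 were called higher in both lines, as were 4.20% of tested genes. AttD passed the low-count filter only through the knockdown libraries and had to differ, and the counts for the other 9 members were 9 in row_RNAi1 and 6 in row_RNAi2. The median log2 fold change of the 10 members was 2.85 in row_RNAi1 and 1.48 in row_RNAi2, beside medians of -0.01 and -0.01 over all tested genes. For 8 members, all 5 knockdown libraries lay above all 3 controls, an arrangement found in 8.92% of tested genes. AttD is among these 8 and among the 7 called higher in both lines, and is no support in either count. Both lines share the same 3 control libraries. The members and the gene lists used here were chosen with earlier results of these data known. Shares over all tested genes are therefore given for scale, here and below, and are no independent test of the members or lists.

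**Figure D1:**
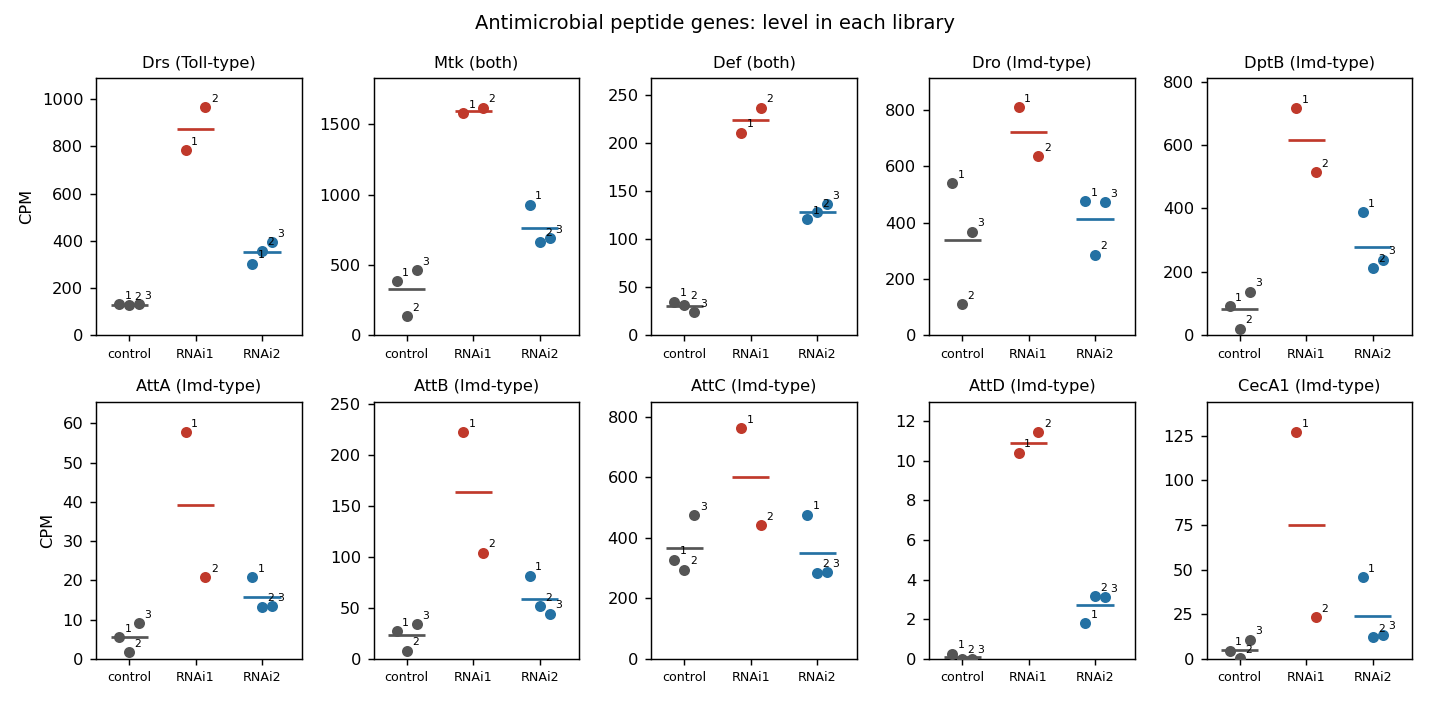
Level of each of the 10 peptide genes (CPM, linear axis from 0) in each library, by group. Points are libraries labelled with their replicate number and bars are group means (n = 3, 2 and 3). Drs runs from 126 to 131 CPM in controls and from 303 to 965 CPM in the knockdown libraries, while AttC and Dro of controls and row_RNAi2 overlap.

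Drosomycin, the Toll-type peptide, had the smallest spread between replicates among the 10 genes. Drs stood at 130.5, 126 and 131 CPM in the controls, 784 and 965 in row_RNAi1, and 303, 357 and 395 in row_RNAi2. The 3 groups did not overlap, and the controls differed by 0.06 on the log2 scale. The log2 change was 2.76 in row_RNAi1 (SE 0.11, edgeR adjusted p = 7.33e-12, 6.78-fold), and 1.45 in row_RNAi2 (SE 0.10, adjusted p = 1.26e-08, 2.73-fold).

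Of the 2 peptides that answer to both pathways, Defensin, which acts mainly on Gram-positive bacteria, also varied little between replicates. Def stood at 34.7, 31.9 and 23.9 CPM in the controls, 211 and 237 in row_RNAi1, and 121, 128 and 137 in row_RNAi2. The groups did not overlap, and no knockdown library came within 3-fold of any control. The log2 change was 2.90 in row_RNAi1 (SE 0.12, edgeR adjusted p = 1.52e-11) and 2.10 in row_RNAi2 (SE 0.11, adjusted p = 1.35e-09).

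Metchnikowin, a proline-rich antifungal and antibacterial peptide, also rose in both lines. Mtk stood at 384, 132 and 462 CPM in the controls, 1578 and 1617 in row_RNAi1, and 926, 665 and 690 in row_RNAi2. Every knockdown library was above every control, and control replicate 2 was the lowest library of all. The log2 change was 2.29 in row_RNAi1 (SE 0.30, edgeR adjusted p = 1.94e-05) and 1.22 in row_RNAi2 (SE 0.28, adjusted p = 0.00634). Without control replicate 2 the changes were 1.91 (SE 0.13) and 0.84 (SE 0.12), and both kept their call in edgeR. DESeq2 did not call Mtk in row_RNAi2 (Benjamini-Hochberg adjusted p = 0.0866).

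Among the Imd-type peptides, the diptericin gene DptB rose in both lines. DptB, whose peptide is active against Gram-negative bacteria, stood at 91.2, 20.3 and 138 CPM in the controls, 716 and 515 in row_RNAi1, and 388, 213 and 239 in row_RNAi2. All knockdown libraries lay above all controls. The log2 change was 2.89 in row_RNAi1 (SE 0.43, edgeR adjusted p = 7.72e-05) and 1.75 in row_RNAi2 (SE 0.40, adjusted p = 0.00674). Without control replicate 2 it was 2.42 and 1.28, called in both lines, whereas DESeq2 did not call it in row_RNAi2 (adjusted p = 0.0954).

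The neighbouring attacin genes AttA and AttB, whose glycine-rich peptides act on Gram-negative bacteria, had changes of similar size. AttA stood at 5.51, 1.65 and 9.14 CPM in the controls, 57.8 and 20.8 in row_RNAi1, and 20.8, 13.3 and 13.3 in row_RNAi2. AttB stood at 27.3, 7.85 and 34.01 CPM in the controls, 222 and 104 in row_RNAi1, and 81.3, 51.5 and 44.3 in row_RNAi2. For both genes every knockdown library was above every control, and replicate 1 was the higher of the row_RNAi1 libraries, by more than 2-fold. In row_RNAi1 the log2 fold changes were 2.87 (SE 0.42, edgeR adjusted p = 5.46e-05) for AttA and 2.84 (SE 0.37, adjusted p = 1.96e-05) for AttB. In row_RNAi2 they were 1.51 (SE 0.45, adjusted p = 0.0413) and 1.35 (SE 0.36, adjusted p = 0.0211). Without control replicate 2, AttA had 2.40 in row_RNAi1 and 1.03 in row_RNAi2. AttB then had 2.41 and 0.91, the latter just under the threshold (edgeR adjusted p = 0.0498). These row_RNAi2 calls depended on single libraries in the edgeR test: AttA lost its call without control replicate 1 (0.103) or 2 (0.168) or without row_RNAi2 replicate 1 (0.137), 2 (0.0762) or 3 (0.056), and AttB without row_RNAi2 replicate 1 (0.105). DESeq2 called neither there (Benjamini-Hochberg adjusted p = 0.184 and 0.195), and limma voom did not call AttA (adjusted p = 0.0663).

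The cecropin gene CecA1, whose helical peptide disrupts bacterial membranes, had the widest range. CecA1 stood at 4.46, 0.413 and 10.7 CPM in the controls, 127 and 23.2 in row_RNAi1, and 45.7, 12.1 and 13.4 in row_RNAi2. All knockdown libraries were above all controls, although the libraries of the lines overlapped with each other. The log2 change was 3.87 in row_RNAi1 (SE 0.71, edgeR adjusted p = 0.00055), and 2.07 in row_RNAi2 (SE 0.79, adjusted p = 0.122), which did not pass. Without row_RNAi1 replicate 1 the first was 2.18 and missed the threshold (edgeR adjusted p = 0.0514). Without control replicate 2 the changes were 3.26 (SE 0.69) and 1.47 (SE 0.75). With CecA2 added to CecA1 the row_RNAi2 change was 2.24 (edgeR adjusted p = 0.0451), and CecA1 alone passed there without control replicate 3 (0.0496) or row_RNAi1 replicate 1 (0.0346) or 2 (0.0331).

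AttD, a further attacin gene, was near 0 in controls. It had 2, 0 and 0 counts in the controls, 172 and 198 in row_RNAi1, and 11, 35 and 35 in row_RNAi2, or 10.4 and 11.4 CPM and 1.80, 3.17 and 3.11 CPM in the lines. The groups did not overlap. The ratio of scaled counts to controls was 144 (95% exact counting interval 39.5 to 1190) in row_RNAi1 and 37.5 (10.04 to 315) in row_RNAi2, where the intervals cover counting error only. The edgeR test gave adjusted p = 7.14e-09 and 2.17e-05, but AttD entered that test only through the knockdown libraries, since 0 of 3 controls were over the CPM cutoff, so these values are no support of their own.

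Drosocin and attacin C, both abundant in control heads, had the smallest fold changes of the members. Dro, which encodes a proline-rich peptide against Gram-negative bacteria, stood at 539.6, 110 and 368 CPM in the controls, 811 and 637 in row_RNAi1, and 477, 286 and 474 in row_RNAi2. AttC stood at 328, 294 and 474 CPM in the controls, 761 and 442 in row_RNAi1, and 476, 284 and 286 in row_RNAi2. For both genes the row_RNAi2 libraries lay within or beside the control range, and for AttC a row_RNAi1 library did too. In row_RNAi1 the log2 fold changes were 1.10 for Dro (SE 0.37, edgeR adjusted p = 0.0466) and 0.72 for AttC (SE 0.23, adjusted p = 0.0312). In row_RNAi2 they were 0.28 for Dro (SE 0.34, adjusted p = 0.722) and -0.07 for AttC (SE 0.21, adjusted p = 0.908), with approximate 95% intervals of -0.39 to 0.95 and -0.48 to 0.34.

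The row_RNAi1 calls of these 2 genes depended on single libraries in the edgeR test. AttC lost its call without control replicate 1 (0.109), control replicate 2 (0.107) or row_RNAi1 replicate 1 (0.599). Dro lost it without control replicate 3 (0.0569), row_RNAi1 replicate 1 (0.285) or 2 (0.102), or row_RNAi2 replicate 1 (0.0588) or 2 (0.0526), and had 0.67 (SE 0.20, adjusted p = 0.0245) without control replicate 2. DESeq2 called neither (adjusted p = 0.296 for Dro and 0.245 for AttC). Without control replicate 2 the AttC change was 0.58 in row_RNAi1 and -0.21 in row_RNAi2, and the row_RNAi2 change of Dro turned to -0.14.

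**Figure D2:**
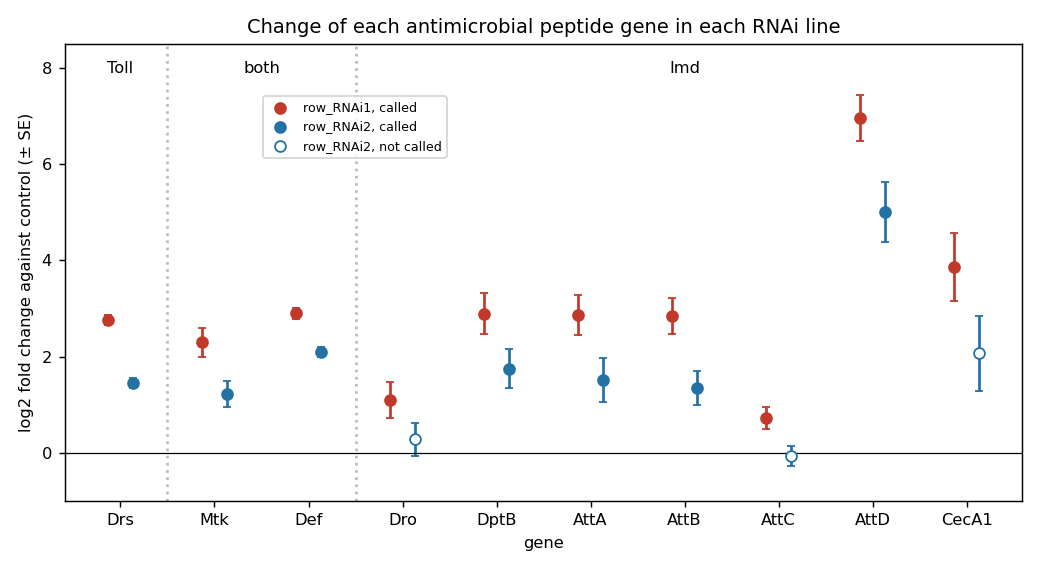
Fitted log2 fold change against control (y axis, with SE bars) of each gene in row_RNAi1 (red) and row_RNAi2 (blue), ordered by pathway class. Filled points passed an edgeR adjusted p under 0.05 and open points did not. In row_RNAi2 the open points are Dro (0.28), AttC (-0.07) and CecA1 (2.07).

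Compared directly, the lines differed in the size of the change. All 10 members had lower levels in row_RNAi2 than in row_RNAi1, and 7 passed the test, where 6.33% of tested genes were called lower. The log2 differences, row_RNAi2 minus row_RNAi1, were -1.31 for Drs (SE 0.10, edgeR adjusted p = 1.34e-07), -0.80 for Def (SE 0.11, adjusted p = 7.64e-05) and -1.07 for Mtk (SE 0.30, adjusted p = 0.0258). Among the Imd-type genes they were -1.36 for AttA, -1.49 for AttB, -0.79 for AttC and -1.95 for AttD. DptB with -1.14 (adjusted p = 0.0929), Dro with -0.81 (0.202) and CecA1 with -1.80 (0.0534) did not pass the edgeR test. These 3 passed when only the 2 lines were fitted (edgeR adjusted p = 0.000595, 0.00377 and 0.0431) and without control replicate 2 (0.00073, 0.00516 and 0.0323). Without control replicate 3, DptB (0.0308) and CecA1 (0.0348) passed, and CecA1 also without row_RNAi1 replicate 2 (0.006) or row_RNAi2 replicate 1 (0.0138). Without row_RNAi1 replicate 1 the calls dropped to 3, with AttA at -0.44, AttB at -0.85 and AttC at -0.35. Without row_RNAi2 replicate 2 or 3 there were 4 calls, and DESeq2 made 3. Mtk lost its call without row_RNAi1 replicate 1 (0.14) or 2 (0.146) or row_RNAi2 replicate 2 (0.105) or 3 (0.0728), and AttA and AttC lost theirs without row_RNAi2 replicate 2 (0.087 and 0.14) or 3 (0.0624 and 0.104), by edgeR adjusted p. Without control replicate 2 all 10 members were called.

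Set beside the Toll-type gene, the Imd-type genes had a median change close to that of Drs in each line. Single Imd-type genes ranged widely, from 0.72 (AttC) to 6.96 (AttD) in row_RNAi1 and from -0.07 (AttC) to 5.01 (AttD) in row_RNAi2. The median log2 fold change of the 7 Imd-type genes was 2.87 in row_RNAi1 and 1.51 in row_RNAi2, beside 2.76 and 1.45 for Drs. The Imd-type median less Drs was thus 0.11 in row_RNAi1 and 0.06 in row_RNAi2, and leaving out single libraries moved it from -0.73 to 0.72 and from -0.40 to 0.71. With limma voom it was 0.26 and 0.35. With Mtk beside Drs and Def among the Imd-type genes it was 0.36 and 0.30. The sign turned to -0.34 and -0.40 without control replicate 2, to -0.73 in row_RNAi1 without row_RNAi1 replicate 1, and in row_RNAi2 to -0.23 without row_RNAi2 replicate 1 and to -0.02 with a minimum mean of 5 CPM. A median over these genes includes AttD, which passed the filter only through the knockdown libraries. With AttD left out, an alternative chosen after seeing the data, the Imd-type median less Drs was 0.09 in row_RNAi1 and -0.02 in row_RNAi2. AttD had the largest change of the 7 genes, fitted or as a ratio of scaled counts, so that replacing one by the other could not move the median.

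By library, the mean of the 7 Imd-type genes less Drs, in log2(CPM + 1), was -2.14, -3.49 and -1.82 in the controls. It was -2.06 and -3.27 in row_RNAi1, and -1.93, -2.86 and -2.89 in row_RNAi2. The groups overlapped throughout, and libraries within a group differed by more than the group means of -2.48 ± 0.887 (SD, n = 3), -2.66 ± 0.858 (SD, n = 2) and -2.56 ± 0.545 (SD, n = 3) did. In row_RNAi1 replicate 1, 5 of the 7 Imd-type genes stood further above their control mean than Drs did, against 2 in replicate 2. In row_RNAi2 replicate 1 it was 5 of 7, against 3 in replicates 2 and 3. AttD, which passed the filter only through the knockdown libraries, is among the genes above Drs in all 5 knockdown libraries. It is no support in these counts, and it is also part of the 7-gene mean. Def less Drs gave another picture, at -1.88, -1.95 and -2.41 in controls, -1.89 and -2.02 in row_RNAi1, and -1.32, -1.47 and -1.52 in row_RNAi2, so that all row_RNAi2 libraries were above all others.

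**Figure D3:**
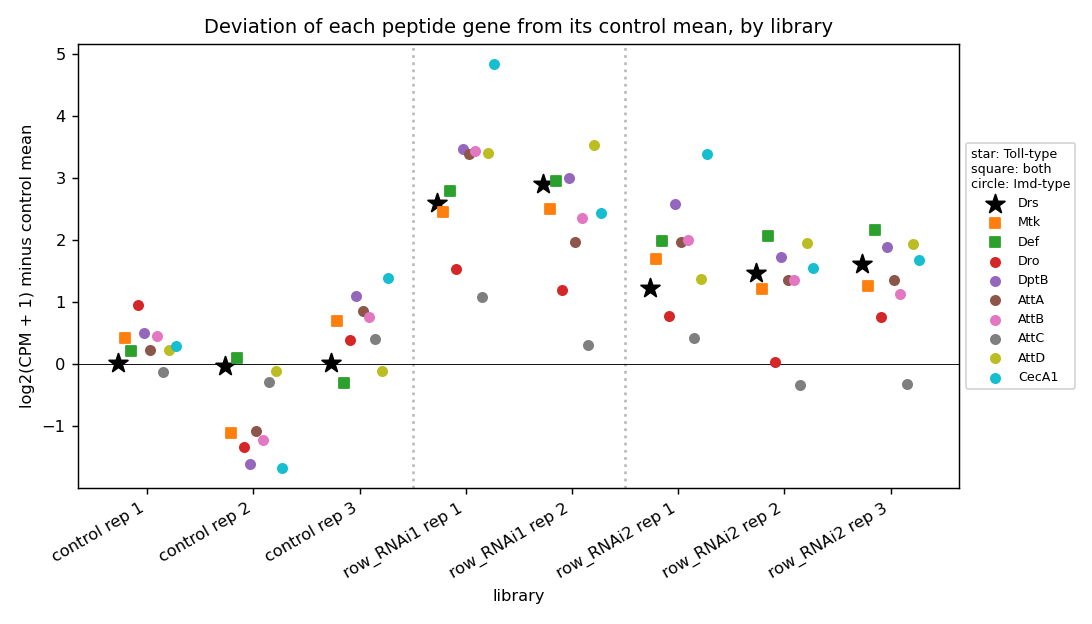
Difference of log2(CPM + 1) from the control mean for each peptide gene in each library, with the Toll-type gene Drs as a star, Mtk and Def as squares and the Imd-type genes as circles. Control replicate 2 holds Mtk at -1.11 and CecA1 at -1.67 while Drs stays at -0.04. CecA1 reaches 4.83 in row_RNAi1 replicate 1 and 2.43 in replicate 2.

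The members varied by different amounts between replicates of a group, which is given here without a test. The pooled within-group SD of log2(CPM + 1) was 0.155 for Drs and 0.189 for Def, but 0.635 for Mtk, 0.808 for Dro, 0.955 for DptB, 0.801 for AttA, 0.809 for AttB and 1.40 for CecA1. AttC had 0.431, and the low-level AttD 0.243. The median over 7438 tested genes with a mean of at least 5 CPM was 0.122, and CecA1, DptB, AttB, Dro, AttA and Mtk were above 99.5% of them, AttC above 99.4% and Drs above 69.6%. The high libraries were the same for most Imd-type genes. Replicate 1 was the highest row_RNAi1 library for 6 of 7 and the highest row_RNAi2 library for 6 of 7, with AttD as the exception in each line. Drs and Def, by contrast, were lowest in replicate 1 of both lines.

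The genes whose levels followed the members most closely over the 8 libraries were sought among 7429 other genes. For Drs, the highest Pearson correlations, 0.992 to 0.997 over the 8 libraries and given as a description, were those of CG11459, CG11089, CG32103, Got1 (an aspartate aminotransferase) and Cpr72Ec (a cuticle protein). CG11459 stood at 9.45, 9.50 and 8.81 CPM in the controls, 79.3 and 83.1 in row_RNAi1, and 26.1, 30.2 and 30.5 in row_RNAi2. For the mean of the Imd-type genes the closest, 0.962 to 0.977, were CR44404 (IBIN, an infection-induced transcript), CecC, Dpt, IM18 and CecA2. IM18 stood at 247, 106 and 295 CPM in the controls, 852 and 853 in row_RNAi1, and 667, 463 and 512 in row_RNAi2, and shared the low value of control replicate 2. Of the members themselves, AttD had 0.995 with Drs and 0.856 with the Imd-type mean, Def 0.964 and 0.818, and Mtk 0.880 and 0.976. The Imd-type mean includes AttD. The 8 libraries fall into 3 groups, which these correlations share.

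Further antimicrobial genes outside the 10 members included both called and uncalled genes. Of 9 tested genes, 6 rose in row_RNAi1 and 0 fell, and 4 rose and 2 fell in row_RNAi2 (edgeR adjusted p under 0.05). Among all tested genes, 11.2% were called higher in row_RNAi1, and 5.49% higher and 5.34% lower in row_RNAi2. The median log2 fold changes of the 9 genes were 3.33 and 1.54. CR44404 rose from 3.28, 0.310 and 6.47 CPM in the controls to 119 and 62.9 in row_RNAi1 and 25.9, 19.9 and 26.1 in row_RNAi2. The log2 fold changes were 4.79 and 2.85 for CR44404, 3.33 and 2.27 for CecC, and 2.63 and 1.54 for Dpt. CecB had 4.17 and 2.40, and its row_RNAi2 value did not pass (edgeR adjusted p = 0.073). At 0, 0.413 and 0.446 CPM in the controls, CecB passed the low-count filter only through the knockdown libraries and had to differ. Its changes and its place among the 6 are therefore no support of their own. Dpt lost its row_RNAi2 call without control replicate 1 (0.0727) or row_RNAi2 replicate 1 (0.0607) in the same test, and the count of genes higher there was then 2, as with DESeq2. The drosomycin-like paralogs of Drs, named after their values were seen, did not pass in row_RNAi1, with log2 fold changes of 0.18 for Drsl3, 0.04 for Drsl4 and 0.08 for Drsl5. In row_RNAi2 Drsl3 fell by 0.40 and Drsl5 by 0.27, while Drsl4 had -0.27 and did not pass (edgeR adjusted p = 0.132). The count lower in row_RNAi2 was 1 without control replicate 1 or 3, row_RNAi1 replicate 1 or 2, or row_RNAi2 replicate 2 or 3.

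Of 22 tested genes of Toll recognition and signalling, 10 rose and 1 fell in row_RNAi1, and 6 rose and 0 fell in row_RNAi2. The shares called higher over all tested genes were 11.2% and 5.49%, and 946 of 9442 were lower in row_RNAi1. The median log2 fold changes of the 22 genes were 0.30 and 0.15. PGRP-SA, a circulating sensor of Gram-positive peptidoglycan, averaged 51.9 ± 5.87 CPM in the 3 controls, 118 ± 1.58 in the 2 row_RNAi1 libraries and 65.8 ± 6.07 in the 3 row_RNAi2 libraries (mean ± SD). PGRP-SD rose by 1.13 and 0.68, the fungal glucan sensor GNBP3 by 0.65 and 0.30, and the protease gene grass, which acts upstream of Toll, by 0.49 and 0.34. The gene lower in row_RNAi1 was Pli, named after its value was seen, at -0.48 (edgeR adjusted p = 0.00437), and it was no longer called without row_RNAi1 replicate 2. Without control replicate 1 the row_RNAi2 count was 2, with PGRP-SA (0.106) and GNBP3 (0.0608) no longer called in the edgeR test. PGRP-SA also lost that call without row_RNAi2 replicate 1 (0.0753) or 2 (0.116), and GNBP3 without row_RNAi2 replicate 3 (0.0518).

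Of 22 tested Imd pathway genes, 8 rose and 0 fell in row_RNAi1, and 4 rose and 0 fell in row_RNAi2, with medians of 0.16 and 0.05. By comparison, 11.2% and 5.49% of all tested genes were called higher in these lines. The receptor gene PGRP-LC rose by 0.60 in row_RNAi1 and had 0.30 in row_RNAi2 (edgeR adjusted p = 0.0512), which passed with RLE or upper-quartile scaling (0.0415 and 0.0455) or without control replicate 2 (0.0276). Rel, which encodes Relish, rose from 64.1, 63.2 and 63.9 CPM in the controls to 88.0 and 84.7 in row_RNAi1, and stood at 68.4, 68.1 and 79.9 in row_RNAi2, where its 0.18 did not pass (edgeR adjusted p = 0.198). The negative regulators PGRP-LF and PGRP-LB, a decoy receptor and an amidase that degrades peptidoglycan, rose by 0.70 and 0.59 in row_RNAi1 and by 0.47 and 0.55 in row_RNAi2. The row_RNAi1 count was 3 without row_RNAi1 replicate 1, where PGRP-LB was lost (0.0539), and the row_RNAi2 count was 2 without control replicate 2 or row_RNAi2 replicate 2. In row_RNAi2, PGRP-LF lost its call without control replicate 1 (0.0555) or 2 (0.0761) or row_RNAi2 replicate 3 (0.0868), and PGRP-LB without row_RNAi2 replicate 2 (0.078), by edgeR adjusted p.

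**Figure D4:**
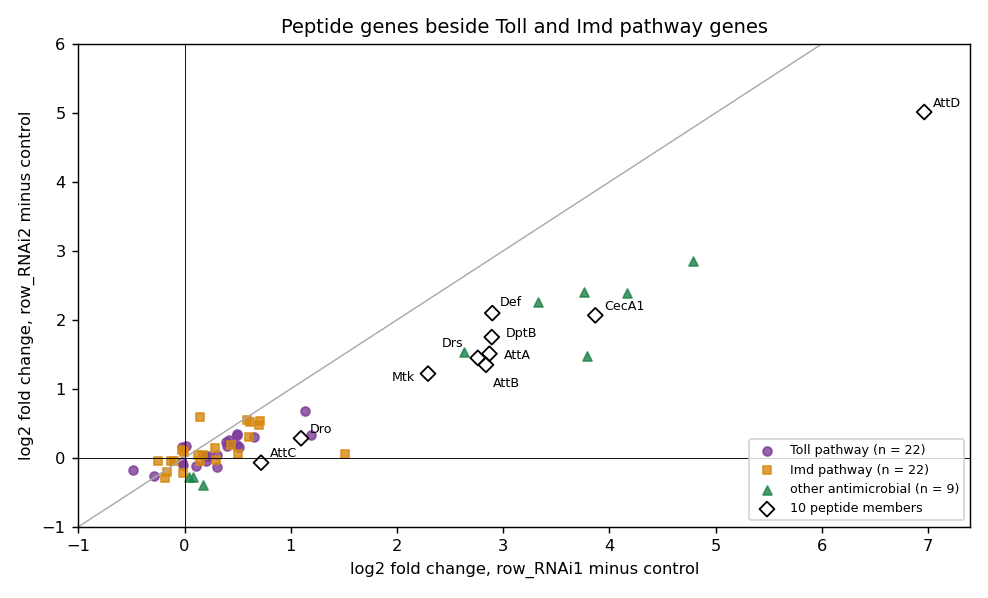
Log2 fold change in row_RNAi1 (x axis) against row_RNAi2 (y axis), both relative to the same controls, for the 10 peptide genes (diamonds), 22 Toll pathway genes, 22 Imd pathway genes and 9 other antimicrobial genes; the diagonal marks equal change. The pathway genes have medians of 0.30 and 0.16 in row_RNAi1, while the median of the peptide members is 2.85.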

How the data were processed

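The authors deposited raw read counts per gene symbol for 8 head libraries; per the labels' protocols these were 3′ RNA-seq libraries made after RNAtag-Seq. The submitters' processing notes name STAR and the build dm3. Sources used here give no counting program, annotation, strand setting or molecular identifiers, and reads of overlapping genes and near-identical paralogs may be shared. Annotation on a later assembly served only for names and neighbours.

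Counts were fitted in edgeR 4.0.16 (R 4.3.3; TMM factors 0.921 to 1.09, filterByExpr, 9442 genes, 3-group model over all 8 libraries), with quasi-likelihood F tests and Benjamini-Hochberg adjustment over all genes, called under 0.05. The fit was tested on simulated data. Fold changes are from the fit, SE from the F statistic. Per-library differences use log2(CPM + 1). All 8 count columns matched a sample.

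Alternatives were RLE and upper-quartile scaling, other filters, DESeq2 1.42.0, limma 3.58.1, 2-group fits, a replicate block, summed paralogs, another class of Mtk and Def, and each library left out. The members and lists were chosen with earlier results of these data known. Named genes were row, the 10 members, up to 4 called genes of each pathway list by smallest p, and the 5 genes most correlated with Drs and with the Imd-type mean. Of 143 listed symbols 11 were not analysed here.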

Additional observations from a re-analysis of the deposited data

Results flagged for a closer look

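A total of 7 members had a change against the shared controls that differed between the lines by the direct edgeR test (Benjamini-Hochberg adjusted p under 0.05). The log2 differences, row_RNAi2 minus row_RNAi1, were -1.31 for Drs, -1.07 for Mtk, -0.80 for Def, -1.36 for AttA, -1.49 for AttB, -0.79 for AttC and -1.95 for AttD. Of these, Drs, Def and AttD were also called by DESeq2 and with each library left out in turn. Groups of 2 or 3 libraries are too small for a test of single outlying libraries.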

How the results depend on the processing

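Of 162 refits of the members in row_RNAi1, 149 kept their direction and their side of the threshold, 13 lost the call and 0 reversed; in row_RNAi2 the counts were 138, 12 and 4, with 8 gained calls, and between the lines 131, 15 and 0, with 16 gained. The reversals were AttC in row_RNAi2, at 0.18 without control replicate 3, 0.06 without row_RNAi2 replicate 2 and 0.05 without row_RNAi2 replicate 3 (range over libraries left out -0.36 to 0.18), and Dro at -0.14 without control replicate 2 (range -0.14 to 0.79), none of them called. Of 8 named pathway genes refitted, PGRP-LB changed sign in its difference between the lines, running from -0.159 to 0.0335.

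DESeq2 called 3 members in row_RNAi2 and 3 between the lines, against 7 and 7. Leaving out single libraries gave 7 to 10 members in row_RNAi1, 5 to 8 in row_RNAi2 and 3 to 10 between the lines, and 1226 to 2150 genes in all in row_RNAi1, 786 to 932 in row_RNAi2 and 555 to 1110 between the lines, against 2001, 1022 and 1068. Without a row_RNAi1 library the lone remaining one is assumed to vary like the other groups. The Imd-type median less Drs ran from -0.73 to 0.72 in row_RNAi1 and from -0.40 to 0.71 in row_RNAi2. Without a low-count filter CecA1 in row_RNAi2 had an edgeR quasi-likelihood adjusted p of 1.3e-53 against 0.122 and Dro 0.0039 against 0.722. The cause was not tested. Both calls, and those of CecA1, DptB and Dro between the lines in the same fit, are among the gained calls counted above.

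Same-numbered libraries correlated at -0.11 to 0.0698 in their deviations from group means. Centring groups this small ties the deviations within a group to each other. These correlations therefore cannot decide whether the numbers pair libraries. With the replicate block 10 members were called in row_RNAi1, 8 in row_RNAi2 and 10 between the lines, where DptB (0.00675), Dro (0.014) and CecA1 (0.00339) were the 3 gained.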
